A study of Mus musculus with 25 samples.

Results

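Macrophages of the mouse Achilles tendon were followed through 10 marker genes, namely Cd68, Adgre1, Csf1r, Mrc1, Cd163, Lyz2, C1qa, C1qb, C1qc and Lyve1. The members are a list of symbols among 55487 genes in the deposited count table, and the list was drawn up with earlier results of these data known. All 10 passed the filter on low counts, which kept 19155 genes. RNA came from whole Achilles tendon of mice aged 3 months, in 25 libraries. The groups were wild type with cage activity (WT cage, 4 female and 3 male), wild type with wheel running (WT running, 3 and 3), AMPKcKO with cage activity (cKO cage, 3 and 3) and AMPKcKO with wheel running (cKO running, 3 and 3). AMPKcKO is a conditional knock-out, and the series title names the AMPKα1 subunit, which Prkaa1 encodes. The labels do not say which Cre line or promoter drives the deletion, so whether macrophages themselves lose the gene is not given in the sources used here. Nor do they say that each library is a separate animal, so p-values measure the spread between these libraries.

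Macrophages are phagocytes that clear debris, present antigen and release signals to neighbouring cells, and most tissues hold a resident population that depends on signalling through the CSF1 receptor. In tendon they lie mainly in the sheath and around vessels, and they gather after injury. A whole-tissue library cannot separate fewer macrophages from less RNA per macrophage, and every value here is a level in the tendon as a whole.

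Expected counts summed to 13193228 to 45724243 per library (median 24538109). The tenocyte list (Tnmd, Scx, Mkx and 7 others) was tested in full, 10 of 10 genes, and summed to 5835 to 25649 CPM (counts per 1000000 counts of the scaled library). Genes of skeletal muscle fibres took 4.09% to 20.98% of the counts, and the 2 mitochondrial rRNA genes took 13.9% to 31.8%. Prkaa1 lay at 13.4 to 31.2 CPM in the 13 WT libraries and at 13.9 to 22.6 CPM in the 12 cKO libraries, so these ranges overlapped. Its medians were lower in the cKO, at 17.8 CPM in cKO cage and 18.65 in cKO running, beside 23.1 in WT cage and 23.4 in WT running. Cre was counted in 11 of the 12 cKO libraries and in no WT library. A Cre count of 0 was found in the library labelled cKO cage female replicate 3. In contrast to its group, the library labelled WT running male replicate 2 had 119 CPM of eGFP, a reporter that was above 10 CPM in all 6 cKO running libraries, in 2 cKO cage libraries and in no other WT library. By their names 2 libraries, male replicate 3 of cKO cage and female replicate 4 of WT cage, carry another prefix than the other 23, so no running library has the rarer prefix.

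All members are protein-coding genes in the GENCODE M21 annotation of GRCm38. The 3 chains of C1q are neighbours on the minus strand of chromosome 4, C1qb at 136880129 to 136886187, C1qc at 136889804 to 136893065 and C1qa at 136895917 to 136898803, a span of 18675 bases. Cd68 lies at chromosome 11, 69664213 to 69666153, Lyz2 at chromosome 10, 117277331 to 117282321, and Lyve1 at chromosome 7, 110850607 to 110863239, all on the minus strand. Adgre1 (chromosome 17, 57358691 to 57483527), Mrc1 (chromosome 2, 14229392 to 14332057) and Cd163 (chromosome 6, 124304656 to 124330527) lie on the plus strand. Lyz1, a near-identical copy beside Lyz2, held 2.87% to 7.61% of the summed CPM of both genes, and reads may have been split between them.

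RefSeq promoter windows of GRCm38.p6, from 250 bases before to 50 after the annotated start, were matched for 6 of the 10 members. They were searched on both strands for GAGGAA, the core bound by the myeloid factor PU.1, and for TGCTGAC, a sequence recognised by Maf factors, because both factors are known for their part in macrophage gene expression. GAGGAA or its reverse complement TTCCTC was found in 4 of the 6 windows (Cd68, Mrc1, C1qb and C1qc) and in 28.3% of 32851 windows in the table. TGCTGAC was found in none of the 6 and in 4.67% of all. For 5 of the 6 members, the stretches upstream of both the RefSeq and the GENCODE start are shown. They run 5′ to 3′ on the gene's strand, with GAGGAA or TTCCTC in capitals. The Lyz2 stretch, from the most abundant member, has no match, and the Cd163 window, also without a match, is not shown. A match describes letters and shows no binding.
Cd68, chr11:69666171-69666420, minus strand: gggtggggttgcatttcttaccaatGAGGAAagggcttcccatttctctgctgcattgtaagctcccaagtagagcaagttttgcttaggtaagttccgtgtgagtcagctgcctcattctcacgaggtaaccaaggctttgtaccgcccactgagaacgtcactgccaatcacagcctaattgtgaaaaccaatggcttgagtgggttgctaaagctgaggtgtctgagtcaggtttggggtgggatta
Mrc1, chr2:14229164-14229391, plus strand: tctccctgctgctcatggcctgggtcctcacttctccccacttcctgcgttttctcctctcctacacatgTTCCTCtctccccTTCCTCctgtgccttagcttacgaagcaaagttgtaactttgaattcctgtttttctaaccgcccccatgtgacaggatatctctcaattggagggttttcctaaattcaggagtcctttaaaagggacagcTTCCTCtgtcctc
C1qb, chr4:136886201-136886450, minus strand: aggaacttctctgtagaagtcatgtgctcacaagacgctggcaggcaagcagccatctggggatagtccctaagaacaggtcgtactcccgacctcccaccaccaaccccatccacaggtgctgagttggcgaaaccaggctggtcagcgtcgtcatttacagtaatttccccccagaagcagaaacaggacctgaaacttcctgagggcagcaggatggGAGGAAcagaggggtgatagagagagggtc
C1qc, chr4:136893066-136893164, minus strand: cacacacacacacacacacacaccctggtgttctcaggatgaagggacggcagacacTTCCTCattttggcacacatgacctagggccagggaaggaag
Lyz2, chr10:117282322-117282522, minus strand: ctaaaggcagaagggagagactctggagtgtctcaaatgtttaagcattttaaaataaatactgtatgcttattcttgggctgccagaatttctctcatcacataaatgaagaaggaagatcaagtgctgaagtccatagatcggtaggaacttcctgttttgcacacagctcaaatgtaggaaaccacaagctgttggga

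The markers spanned a wide range of levels. On the scale of FPKM, which corrects for transcript length, Lyz2, the lysozyme of phagocytes, had the highest median over the 25 libraries at 115 (42.0 to 309). C1qc followed at 40.9, then Csf1r at 29.2, C1qa at 27.6 and C1qb at 23.9. The receptors came next, with median FPKM of 15.2 for Mrc1, 11.6 for Lyve1 and 8.30 for Cd163. Cd68 stood at 8.17 and Adgre1, which encodes F4/80, was lowest at 4.91. Neighbours in this order were not equally distinct: Lyz2 lay above C1qc in 25 of 25 libraries and C1qb above Mrc1 in 25, but Csf1r lay above C1qa in 12 and Cd163 above Cd68 in 14. The middle of the order therefore changed from library to library, and its top did not.

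Running tendons had the higher mean level of every macrophage marker, by amounts that did not exceed the spread between libraries after adjustment over all genes. Averaged over both genotypes, the log2 fold change of running against cage was positive for 10 of 10 members, from 0.31 for Adgre1 to 0.84 for Cd68, with a median of 0.56. The same median over all 19155 genes was 0.01, and 52.2% of them were positive. No member passed edgeR's quasi-likelihood test after Benjamini-Hochberg adjustment over all genes, where 1.31% of genes were called (250 of 19155). At an unadjusted p under 0.05, 7 of 10 members were higher and none lower, beside 7.24% of all genes that were higher at that threshold. No member separated the 12 running from the 13 cage libraries: every pair of ranges overlapped, as they did for all but 0.0261% of genes. The contents of the libraries moved along. Mitochondrial rRNA took 20.8% ± 4.61 of counts in running and 24.4% ± 3.85 in cage libraries (SD, n = 12 and 13), and with that share as a covariate the members' median was 0.36, with 1 member at an unadjusted p under 0.05. Muscle genes took 12.53% ± 4.81 and 14.2% ± 4.76, and with a muscle covariate the median was 0.39, with 6 such members. With eGFP (above 10 CPM or not) as a covariate the median was 0.49 with 2 such members. All 6 cKO running libraries but only 2 cKO cage libraries were above 10 CPM, so that term overlaps with running. Without the 2 libraries whose reporter counts go against their labels the median was 0.53 with 7 such members. Without the 2 cage libraries of the rarer name prefix it was 0.47 with 6, and 10 of 10 members stayed positive. Within genotypes the median was 0.46 in WT and 0.53 in cKO. Muscle genes had medians of opposite sign there, 0.25 in WT (31 of 35 positive) and -0.54 in cKO (0 of 35). Of all genes, 50.4% and 53.9% were positive. None of the 35 was called in either genotype, and at an unadjusted p under 0.05 they held 0 in WT and 4 in cKO. Muscle genes vary together, so their count is not a measure of error. With the muscle covariate the members' median was 0.45 in WT and 0.26 in cKO, where 9 of 10 stayed positive. Without the 2 libraries of contrary reporter counts it was 0.41 and 0.62.

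**Figure D1:**
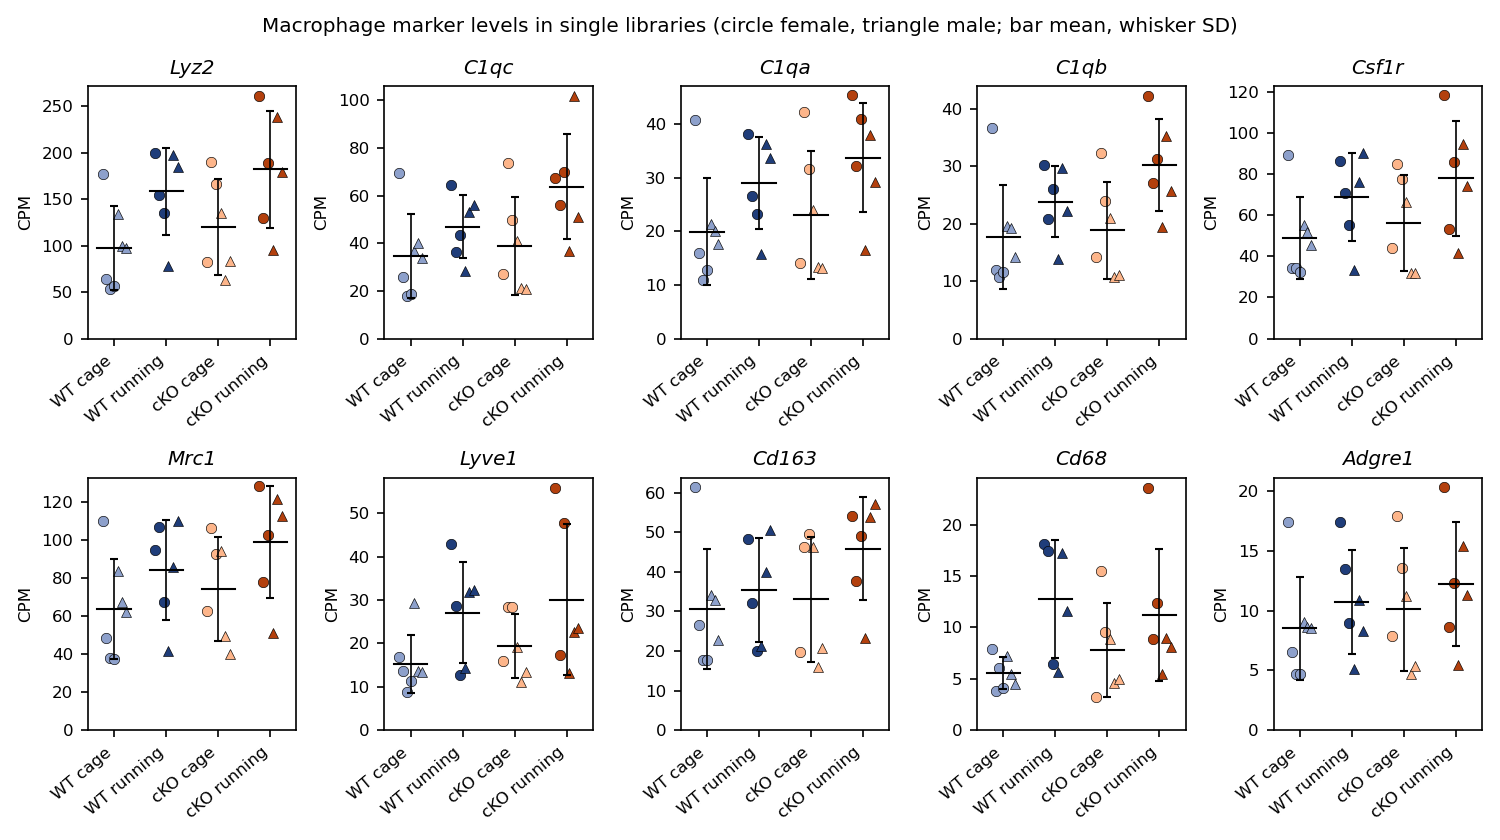
Level of each marker in single libraries, in CPM on a linear axis from 0, for the 4 groups (circles female, triangles male, bar mean, whisker SD, n = 7, 6, 6 and 6). The running groups have the higher mean for every marker within each genotype, and the points of running and cage libraries overlap in every panel.

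Cd68 encodes a glycoprotein of lysosomal and endosomal membranes, and it showed the largest difference of the 10. In WT cage libraries it ranged from 3.80 to 7.87 CPM (median 5.46), and in WT running libraries from 5.66 to 18.1 CPM (median 14.5). Of the 6 WT running libraries, 4 lay above every WT cage library, and the ranges overlapped through WT running female replicate 3 and male replicate 1. In the cKO it ranged from 3.21 to 15.5 CPM with cage activity (median 6.91) and from 5.46 to 23.6 CPM with running (median 8.91). There only cKO running female replicate 2 exceeded the highest cage library. The log2 fold change was 1.19 ± 0.34 (SE) in WT (6 against 7 libraries, adjusted p = 0.186), where 0.125% of all genes were called. One of the 4 high WT running libraries is male replicate 2, the one with eGFP, and without it the WT value was 1.00 ± 0.35 (adjusted p = 0.390). It was 0.49 ± 0.35 in cKO (6 against 6, adjusted p = 0.548), where 0.0574% were called. For the mean of both genotypes it was 0.84 ± 0.24 (adjusted p = 0.0906). Over 42 alternative analyses that mean ran from 0.65 to 1.01, with adjusted p from 0.0167 (DESeq2) to 0.562 (an eGFP covariate). Leaving out cKO cage female replicate 2, the cage library with the most Cd68, gave 0.97 with an adjusted p of 0.0495. Among the 4 high WT running libraries, female replicate 2 and male replicate 3 lay apart on the second principal component, a main axis of variation between libraries. They scored 112 and 83.1 there, beside 7.63 or less in every other library. Over the same 42 alternatives, which include their joint omission, the WT value ran from 1.00 to 1.36.

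Lyz2, which encodes the lysozyme that cleaves bacterial cell walls, followed a similar course at a higher level. It ranged from 52.9 to 177 CPM in WT cage (median 97.7) and from 78.0 to 199.8 CPM in WT running libraries (median 169.7). In the cKO it ranged from 63.5 to 190.0 CPM with cage activity (median 109.8) and from 95.4 to 261.5 CPM with running (median 184). The 4 groups overlapped, with 10 of 12 running libraries above the cage median of 97.7 CPM. The log2 fold change was 0.70 ± 0.31 in WT (adjusted p = 0.449), 0.61 ± 0.32 in cKO (adjusted p = 0.406) and 0.66 ± 0.22 for the mean (adjusted p = 0.154, 0.0454 with DESeq2). With a muscle covariate the cKO value was 0.27 ± 0.28.

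C1qa, C1qb and C1qc encode the chains of C1q, the recognition molecule that starts the classical complement pathway and is made largely by tissue macrophages. C1qb ranged from 10.7 to 36.6 CPM in WT cage (median 14.2) and from 13.8 to 30.2 CPM in WT running (median 24.1). In the cKO it ranged from 10.7 to 32.2 CPM with cage activity (median 17.6) and from 19.4 to 42.2 CPM with running (median 29.1). All 6 cKO running libraries lay above the cKO cage median, whereas in WT a single cage library, female replicate 1 at 36.6 CPM, lay above every running library. C1qc ranged from 17.8 to 69.6 CPM in WT cage (median 33.8), from 28.6 to 64.5 CPM in WT running (median 48.1), from 20.8 to 73.7 CPM in cKO cage (median 34.0) and from 36.7 to 101.7 CPM in cKO running libraries (median 61.7). C1qa had group medians of 17.6, 30.2, 19.1 and 35.1 CPM in the same order. For the mean of both genotypes the log2 fold changes were 0.59 ± 0.23 for C1qc, 0.56 ± 0.20 for C1qb and 0.56 ± 0.22 for C1qa, with adjusted p of 0.229, 0.174 and 0.225. Without WT cage female replicate 1, C1qb had 0.68 ± 0.18 and an adjusted p of 0.0367. With every library kept, limma-voom with quality weights gave 0.61 ± 0.18 (adjusted p = 0.041), so both the library and the tool bear on its call. In cKO alone C1qc had 0.74 ± 0.33 and C1qa 0.56 ± 0.31, which a muscle covariate brought to 0.34 ± 0.27 and 0.25 ± 0.28. On the scale of FPKM, the ratio of C1qa to C1qb stayed between 0.910 and 1.61 in all 25 libraries, and that of C1qc to C1qb between 1.41 and 2.54.

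Csf1r encodes the receptor through which CSF1 and IL-34 keep macrophages alive. It lies on the plus strand of chromosome 18, 61100598 to 61132149, and its 3′ end overlaps Hmgxb3 on the opposite strand. No source states whether counting used strand, so reads in the overlap cannot be assigned with certainty. Its level ranged from 32.5 to 89.4 CPM in WT cage (median 45.7), from 33.3 to 90.4 CPM in WT running (median 73.4), from 31.9 to 84.8 CPM in cKO cage (median 55.2) and from 41.5 to 118 CPM in cKO running (median 79.9). Running and cage libraries overlapped in both genotypes, with 10 of 12 running libraries above the cage median. The log2 fold change was 0.49 ± 0.29 in WT, 0.49 ± 0.30 in cKO and 0.49 ± 0.21 for the mean (adjusted p = 0.608, 0.478 and 0.266). The deposited FPKM gave another picture, with group means of 25.6 ± 14.3 in WT cage, 30.8 ± 12.8 in WT running, 26.2 ± 15.2 in cKO cage and 56.3 ± 28.5 in cKO running (SD). On log2(FPKM + 0.1) limma gave 0.32 ± 0.41 in WT and 1.20 ± 0.42 in cKO (adjusted p = 0.901 and 0.245). With a muscle covariate on the counts the cKO value was 0.13 ± 0.25. Of its ligands, Csf1 stood at 51.8 ± 11.8 CPM in cage and 65.8 ± 13.9 CPM in running libraries (SD, n = 13 and 12), with a log2 fold change of 0.34 ± 0.13 (adjusted p = 0.196). Il34 stood at 2.44 ± 0.69 and 2.75 ± 0.84 CPM, with 0.15 ± 0.18 (adjusted p = 0.752). Of the 8 ligands and receptors of the CSF family listed, 6 were tested and 0 were called. All 6 had positive fold changes, with a median of 0.32.

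The endocytic receptors are carried mainly by resident macrophages. Mrc1 encodes the mannose receptor CD206, and its group medians were 62.1 CPM in WT cage, 90.2 in WT running, 77.6 in cKO cage and 107.7 in cKO running. Cd163 encodes the receptor for haemoglobin bound to haptoglobin, with medians of 26.7, 36.1, 33.5 and 51.6 CPM in that order. For the mean of both genotypes the log2 fold changes were 0.41 ± 0.20 for Mrc1 (adjusted p = 0.347) and 0.35 ± 0.23 for Cd163 (adjusted p = 0.514). Adgre1, the F4/80 antigen, had the smallest difference: 8.56, 9.94, 9.54 and 11.8 CPM at the medians, and 0.31 ± 0.24 (adjusted p = 0.586). In single subsets its sign turned, to -0.10 ± 0.39 for WT males alone and -0.05 ± 0.30 for cKO with a muscle covariate.

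Lyve1 encodes a hyaluronan receptor shared by perivascular macrophages and lymphatic endothelium. It ranged from 8.88 to 29.3 CPM in WT cage (median 13.5), from 12.7 to 42.9 CPM in WT running (median 30.3), from 10.99 to 28.4 CPM in cKO cage (median 17.6) and from 13.2 to 55.9 CPM in cKO running (median 23.1). Of 12 running libraries, 5 lay above every cage library, 3 of the 6 WT and 2 of the 6 cKO runners counted within genotype. The log2 fold change was 0.81 ± 0.34 in WT (adjusted p = 0.431), 0.62 ± 0.35 in cKO (adjusted p = 0.442) and 0.71 ± 0.25 for the mean (adjusted p = 0.162). Among the genes of lymphatic endothelium, Prox1 had -0.01 ± 0.18, Flt4 0.11 ± 0.11 and Pdpn 0.38 ± 0.13. The 9 tested entries ran from -0.15 to 1.39, a maximum above that of Lyve1 (7 positive, median 0.10), and 0 were called. After group and sex means were removed, Lyve1 correlated with the other 9 members at r from 0.63 (C1qc) to 0.80 (Cd68). With lymphatic genes it correlated at -0.20 for Prox1, 0.47 for Flt4, 0.61 for Pdpn, 0.68 for Mmrn1 and 0.80 for the first of 2 entries of Ccl21a, so these genes spanned both signs and reached the level of the macrophage markers. All values are across the 25 libraries, which share their depth and tissue make-up with every gene.

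**Figure D2:**
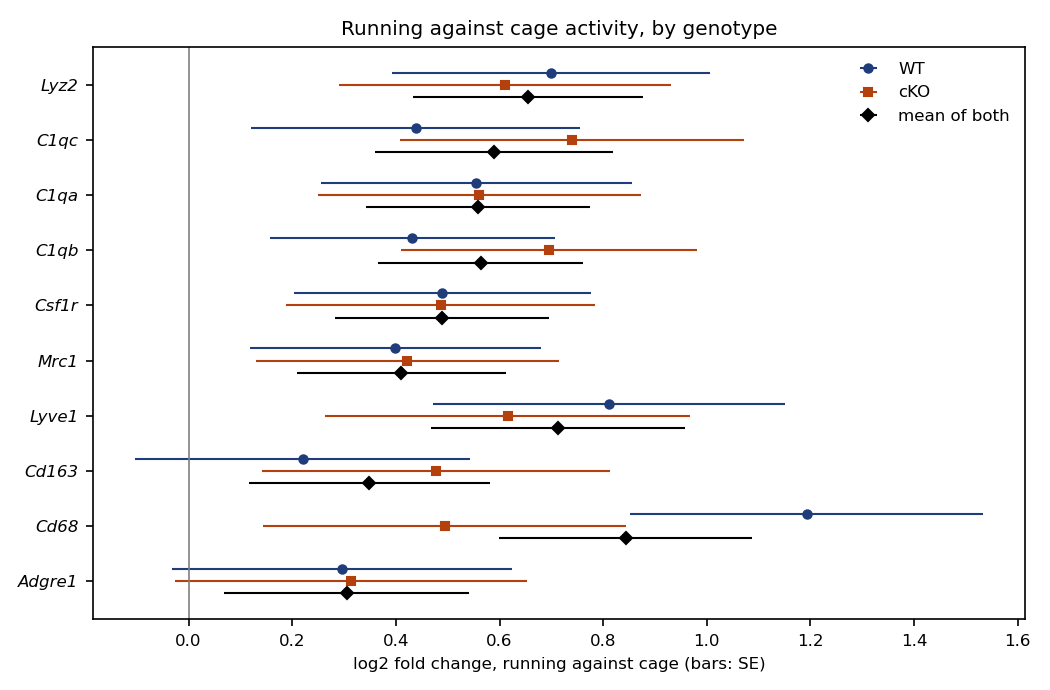
Log2 fold change of running against cage for each marker in WT (circles), cKO (squares) and as the mean of both (diamonds), with bars of 1 SE. Every point lies above 0, Cd68 in WT is farthest out at 1.19, and the bars of WT and cKO overlap for every marker except Cd68, where they do not meet.

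No marker differed between the genotypes by more than the spread between libraries. At cage activity cKO against WT was positive for 10 of 10 members, from 0.07 ± 0.28 for C1qb to 0.46 ± 0.34 for Cd68 (median 0.19), with an adjusted p of 1.00 for each. The sexes differed in direction here: females alone gave a median of 0.59 (10 of 10 positive) and males alone -0.23 (1 of 10), a difference that was not tested. Among runners 9 of 10 were positive, from -0.24 ± 0.35 for Cd68 to 0.45 ± 0.33 for C1qc (median 0.21, adjusted p from 0.585 to 0.924). As the mean of both activities the range was 0.11 ± 0.24 for Cd68 to 0.29 ± 0.23 for C1qc (median 0.21), beside a median of 0.00 over all genes. In each of these 3 comparisons 0% of all genes were called and 0 of 10 members. At an unadjusted p under 0.05 they also held 0 members, beside 1.08%, 11.2% and 3.72% of all genes. With a standard error of 0.20 to 0.25 for the mean, a difference of the size seen for running cannot be set aside for most markers. Cd68, at 0.11 ± 0.24 beside 0.84 for running, is further off, and Lyve1, at 0.20 ± 0.25 beside 0.71, is at the border. Muscle genes took 11.7% ± 4.55 of counts in cKO and 15.0% ± 4.56 in WT libraries (SD, n = 12 and 13), and their part in the difference was not tested beyond a fit with a muscle covariate, in which the median for the mean of both activities was 0.14 and that among runners -0.01 (4 of 10 positive). Without the 2 libraries whose reporter counts go against their labels the medians were 0.13 at cage activity (9 of 10 positive), 0.29 among runners (9 of 10) and 0.21 as the mean (10 of 10).

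The running response did not differ detectably between genotypes. The genotype-by-running interaction was positive for 6 of 10 members, with a median of 0.01, and 0% of all genes were called. Cd68 had the largest difference, -0.70 ± 0.49 (adjusted p = 0.697), followed by C1qc at 0.30 ± 0.46 (adjusted p = 0.857). Csf1r had 0.00 ± 0.41 on the counts and 0.88 on log2(FPKM + 0.1), neither of them called. The sign of the median depended on the analysis: it was -0.30 with a muscle covariate (0 of 10 positive), 0.27 on log2(FPKM + 0.1) (9 of 10, beside 0.23 over all genes) and 0.14 without the 2 libraries whose reporter counts go against their labels (8 of 10). Each comparison of running within a genotype uses its own libraries, and the standard errors leave room for differences of the size of the responses themselves.

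Males had lower fitted levels of every marker than females, within error. The log2 fold change of male against female was negative for 10 of 10 members, from -0.46 ± 0.24 for Adgre1 and -0.44 ± 0.25 for Cd68 to -0.11 ± 0.23 for Cd163 (median -0.26). None was called, where 0.579% of all genes were (111 of 19155), and 0 of 10 had an unadjusted p under 0.05 beside 10% of all genes. For running against cage, females alone gave a median of 0.47 and males alone 0.58, positive for 10 of 10 members in each.

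The markers varied widely between libraries of a group, and they varied together. The mean log2 CPM of the 10 had an SD of 0.57 within genotype, activity and sex, as large as the median difference of 0.56 between running and cage. Across the 25 libraries the highest level was 3.43 times the lowest for Mrc1 and 7.34 times for Cd68. The library cKO running female replicate 2 was highest for 8 of the 10 markers and among the 5 highest for all 10, and cKO running male replicate 2 was among the 5 highest for 7. At the other end, WT cage female replicate 4 was among the 5 lowest for all 10 markers, and 9 markers were that low in cKO cage male replicate 2 and in WT cage female replicate 3. Of the 2 libraries with the rarer name prefix, both with cage activity, the other, cKO cage male replicate 3, was that low for 6 markers. The part of the prefix in these levels was not tested beyond leaving both libraries out. Cage libraries could also be high: WT cage female replicate 1, the deepest library, was among the 5 highest for 7 markers, and cKO cage female replicate 2 for 6. With the other 12 cage libraries kept, leaving out WT cage female replicate 1 moved the members' median for running against cage from 0.56 to 0.67.

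**Figure D3:**
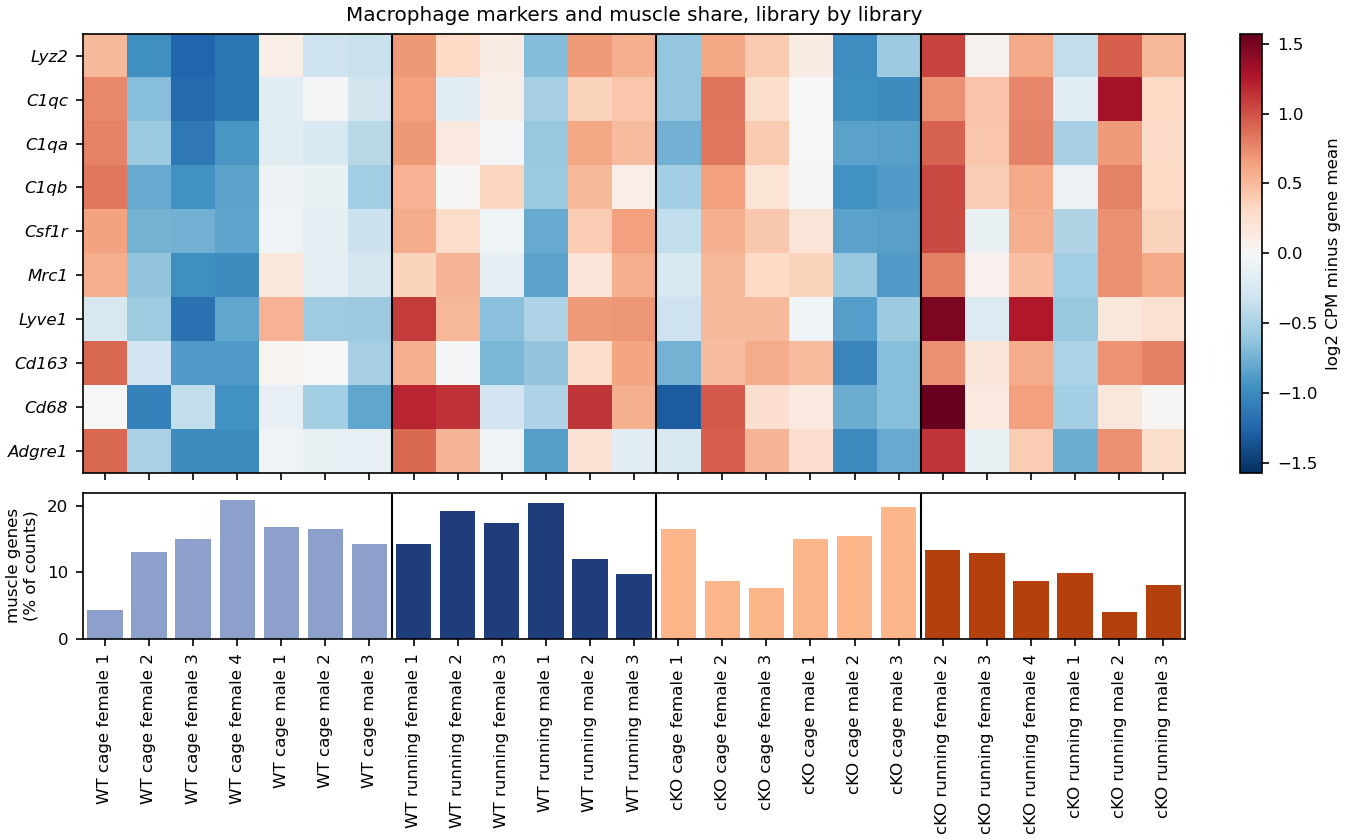
Upper panel, log2 CPM of each marker minus that marker's mean, by library (colour scale in log2 units). Lower panel, the percentage of counts in skeletal muscle genes in the same libraries. Many columns keep a similar colour from top to bottom, but some are mixed. WT running female replicate 2, for example, ranked 3 of 25 for Cd68 and 17 for C1qc. WT cage female replicate 1 (4.30% muscle) and cKO running male replicate 2 (4.09%) were each among the 5 highest libraries for 7 markers. Yet cKO running female replicate 2 (13.4%) was among the 5 highest for all 10, and cKO running male replicate 1 (9.92%) for 0.

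With group and sex means removed, the 45 pairs of markers had Pearson correlations from 0.63 (C1qc with Lyve1) to 0.97 (Csf1r with Lyz2), with a median of 0.90 over 25 libraries. Lyz2 was closest to the mean of the other 9 (r = 0.98), and no other gene of the 19155 was closer to that mean. Cd68 (r = 0.80) and Lyve1 (r = 0.79) were the least alike. These coefficients describe libraries that share depth, scaling and tissue make-up. The mean of the members ran opposite to the muscle share (r = -0.64) and less so to the mitochondrial rRNA share (r = -0.31). Per 1000000 counts outside muscle and mitochondrial rRNA genes, the 10 members summed to a median of 480.0 in WT cage, 863 in WT running, 591 in cKO cage and 1023 in cKO running libraries, so the order of the groups was the same with those genes taken out of the total.

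The genes whose pattern was most like that of the markers were ranked by the same measure among 11710 tested genes with a mean log2 CPM of at least 1. The first was F13a1 (r = 0.96), the A subunit of coagulation factor XIII, followed by Ctss, a lysosomal protease, Cbr2, a carbonyl reductase, and Itgb2, the β2 integrin of leukocytes (r = 0.95, 0.94 and 0.94). The others were the Fc receptors Fcgr3 and Fcgr2b, the phosphatase Ptprj, the leukocyte membrane protein Laptm5, and Clec3b and Serping1 (r from 0.93 to 0.94). Serping1 encodes the inhibitor of the C1 proteases. F13a1 stood at 66.0 ± 24.8 CPM in cage and 106 ± 35.9 CPM in running libraries, with a log2 fold change of 0.68 ± 0.22 (adjusted p = 0.123).

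Of 20 further core genes, 19 had a positive fold change for running against cage, with a median of 0.45, and 0 were called. Trem2, a lipid-sensing receptor, stood at 1.49 ± 0.81 CPM in cage and 3.13 ± 1.40 CPM in running libraries, with 1.07 ± 0.28 (adjusted p = 0.0557). Siglec1, the sialic acid receptor CD169, had 0.61 ± 0.19 (adjusted p = 0.113), and Spi1, which encodes PU.1, had 0.53 ± 0.24 (adjusted p = 0.294). Of 18 genes of resident and perivascular macrophages, 17 were positive with a median of 0.55 and 0 called. Stab1, a scavenger receptor, had 0.50 ± 0.15 (adjusted p = 0.0987).

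A mixed picture came from genes of lysosomes and lipid handling, which other cell types of the tendon also express. Of 16 genes, 12 were positive with a median of 0.18, 1 rose and 1 fell. Lgmn, the lysosomal protease legumain, rose from 51.8 ± 9.05 CPM in cage to 67.6 ± 10.5 CPM in running libraries, a log2 fold change of 0.38 ± 0.10 (adjusted p = 0.0434). Cd36, a fatty acid receptor abundant in muscle, fat and endothelium, fell from 435 ± 82.0 to 321 ± 59.5 CPM, -0.46 ± 0.12 (adjusted p = 0.0455). Both calls are near the threshold and held in 14 of 42 alternatives each. Lpl, lipoprotein lipase, had -0.51 ± 0.13 (adjusted p = 0.0526).

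Complement genes other than C1q had a median of 0.26, 11 of 12 positive and 0 called. C3ar1, the receptor for C3a, stood at 6.59 ± 2.57 CPM in cage and 11.5 ± 5.995 CPM in running libraries, with 0.79 ± 0.26 (adjusted p = 0.138).

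Lists for recruited or activated cells gave medians from 0.02 to 0.33. The MHC class II genes had a median of 0.02 (5 of 7 positive), with Cd74 at 0.02 ± 0.26 and H2-Aa at 0.05 ± 0.25. Genes of monocytes and their recruitment had 0.10, with 5 of 7 tested positive out of 12 listed, and Ccr2, the chemokine receptor of inflammatory monocytes, had 0.11 ± 0.26. Inflammatory activation genes had 0.33 (5 of 8 tested of 13 listed), and genes of alternative activation had 0.07 (5 of 8). None of these genes was called. Whether these lists differ from the 10 members was not tested.

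Markers of other cells that share genes with macrophages were checked in full. None of the 11 neutrophil genes passed the filter, and their summed level was at most 1.89 CPM in any library, with Ly6g at 0 counts in 23 of 25. The 6 tested dendritic cell genes had a median of -0.08 (1 positive), and their summed level was 18.7 ± 3.54 CPM in cage and 17.6 ± 3.05 CPM in running libraries. Of 7 osteoclast genes 4 were tested, all positive, with a median of 0.17, and Acp5 had 0.20 ± 0.23. The 8 mast cell genes were all positive with a median of 0.56, and their summed level was 22.3 ± 14.3 CPM in cage and 30.4 ± 16.8 CPM in running libraries. Genes of blood endothelium had a median of -0.11 (3 of 10 positive), tenocyte genes -0.18 (3 of 10) and muscle genes -0.13 (9 of 35). The 5 tested genes of red blood cells were positive with a median of 0.35, and the 4 tested genes of T and NK cells had a median of -0.16 (1 positive). Of 7 B cell genes 1 was tested, and it was positive at 0.52. The summed level of the B cell genes was 10.7 ± 4.39 CPM in cage and 15.2 ± 4.69 CPM in running libraries. No gene of these lists was called. Of 9 genes of sheath fibroblasts 8 were positive with a median of 0.22, and Pi16, a marker of adventitial fibroblasts, rose by 0.81 ± 0.18 (adjusted p = 0.0271). The summed level of these 9 genes was 1401 ± 404 CPM in cage and 2290 ± 1102 CPM in running libraries. The part of these cells in the marker levels was not tested.

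**Figure D4:**
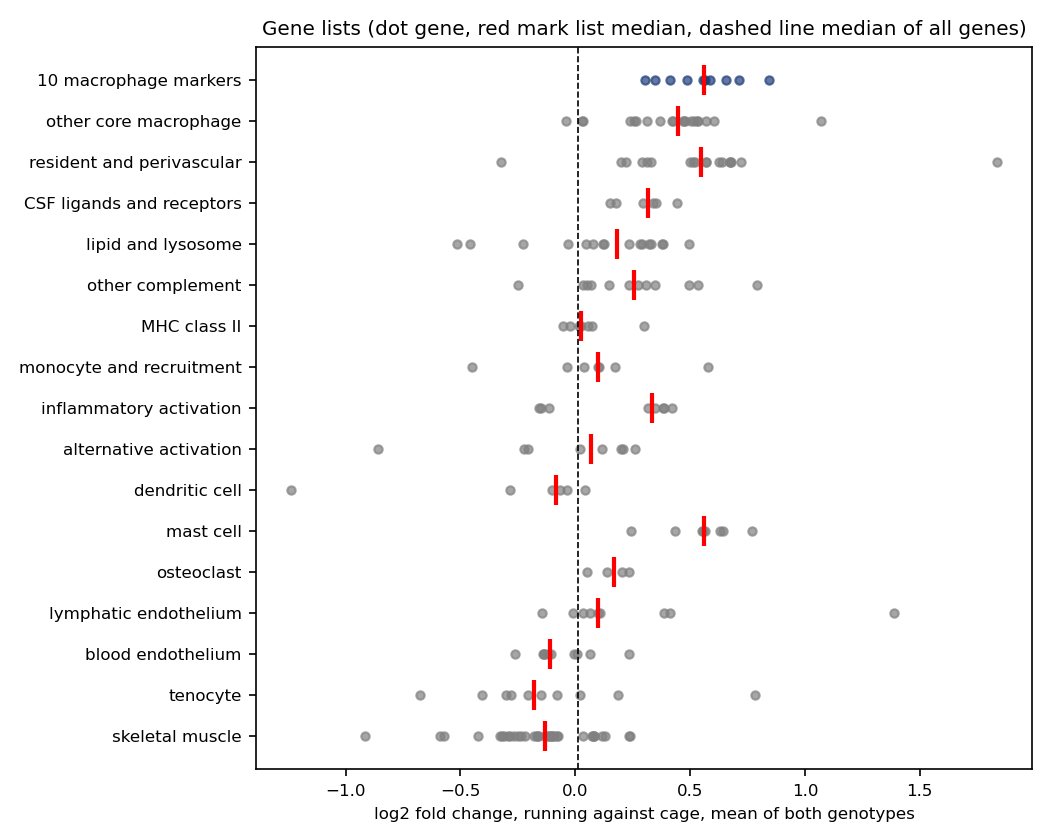
Log2 fold change of running against cage (mean of both genotypes) for every tested gene of each list (dots), with the median of the list (red mark) and of all genes (dashed line, 0.01). The 10 markers, the other core and the resident macrophage genes have medians from 0.45 to 0.56, as do the mast cell genes at 0.56, and the MHC class II median is 0.02.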

How the data were processed

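Libraries of Achilles tendon RNA from 25 samples were analysed. The submitters' processing notes list RSEM 1.3.3, STAR 2.7.8a, FastQC 0.11.8 and cutadapt 2.3, with GRCm38 (mm10) as the genome. The role of each tool, the annotation release and the strand setting are not given in the sources used here. The authors deposited expected counts per gene, as RSEM estimates them and whole numbers in this table, and FPKM values, which are scaled by depth and transcript length, in a second table. Samples were grouped by the labels' genotype and activity. Both tables hold 4 added reporter entries, left out of the gene tests.

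The count analysis ran in edgeR 4.0.16 under R 4.3.3. The filter filterByExpr, given the 4 groups, kept 19155 of 55487 genes, and TMM gave the library scaling. A quasi-likelihood model (glmQLFit, robust) had the 4 group means and a sex term, and 8 comparisons were tested, two-sided. Benjamini-Hochberg adjustment ran over all genes of a comparison, with calls at adjusted p under 0.05. CPM are counts per 1000000 counts of the TMM-scaled library. FPKM were used for the order of levels and for an alternative. Correlations used log2 CPM with a prior count of 2 after group and sex means were removed.

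The members and the gene lists were chosen with earlier results of these data known. Genes named besides the 10 members are called genes of a list, up to 3 per list with the smallest p for running against cage, and the 10 tested genes most like the members, without predicted genes. Of the genes this rule allows, 1 is not reported here. Spi1, Il34, Prox1, Flt4, Cd74, H2-Aa and Ccr2 were named for their role in the text, with their values seen, as was Acp5. The script was tested on simulated counts. Alternatives covered scaling, filters, DESeq2 1.42.0, limma 3.58.1 (voom with quality weights, and log2 FPKM with 1 or 0.1 added), covariates, a replicate block, subsets of the libraries, and the omission of each single library. No libraries held identical values.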

Additional observations from a re-analysis of the deposited data

Results flagged for a closer look

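In the WT cage group, 6 of the 10 markers had a library that stood apart from the other 6 by more than Dixon's 95% limit. WT cage female replicate 1 was that library for Adgre1 (17.4 CPM), Csf1r (89.4 CPM), Cd163 (61.6 CPM), C1qa (40.9 CPM) and C1qb (36.6 CPM). It was the deepest of the 25 libraries, with 45724243 counts, and the cage library with the smallest muscle share (4.30%). For Lyve1 the library was WT cage male replicate 1 (29.3 CPM). No marker had such a library in the other 3 groups. Of the 44 combinations of measure and group examined, 6 stood out, where chance gives about 5%, and because the markers vary together these 6 are not independent.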

How the results depend on the processing

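For running against cage as the mean of both genotypes, all 10 members stayed positive in all 42 alternatives, with a median from 0.36 (mitochondrial rRNA covariate) to 0.77 (log2 of FPKM + 0.1, where the median of all genes was 0.15). DESeq2 called 2 members (Cd68 and Lyz2) and 1 (Cd68) in WT alone, and limma-voom called 1 (C1qb), beside 637 and 983 genes of all for the mean. Leaving out 1 library in turn gave 0 to 1 members called: 1 without WT cage female replicate 1 (C1qb) and 1 without cKO cage female replicate 2 (Cd68), while the median ran from 0.50 to 0.67 and the count over all genes from 126 to 556. The counts over all genes ran from 7 (females alone) to 983 (limma-voom), 1 to 310 in WT and 0 to 383 in cKO, against 250, 24 and 11. Adgre1 turned to -0.10 in WT (males alone) and -0.053 in cKO (muscle covariate), and the cause was not tested. The members' median for genotype was negative in males alone (-0.23 at cage activity and -0.02 as the mean of both activities), and no member was called for genotype, interaction or sex in any alternative. Lgmn and Cd36 lost their calls in 28 of 42 alternatives each, and Trem2 was called in 10.

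A replicate block left 0 members called, with a median of 0.59 for the running mean, and moved the count over all genes from 250 to 149. Libraries of the same number, sex and different group had residual correlations from -0.20 to 0.21 (mean -0.01, 34 pairs), so the numbers do not pair them. Totals ran from 13193228 to 45724243 counts a library, and the SE of the members' running mean was 0.20 to 0.25.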
